A study of Homo sapiens with 6 samples.

Results

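The genes described here are 10 regulators of nucleic acid sensing: the sensors CGAS and DDX41, the adaptors STING1 and MAVS, the kinases TBK1 and IKBKE, and the interferon regulatory factors (IRFs) IRF3, IRF5, IRF1 and IRF2. They were taken by name, as genes that the ubiquitin ligase TRIM21 is known to act on or near, and all 10 were found among the 28278 gene symbols of the count tables. RNA was sequenced from HCT116, an established cell line grown from a poorly differentiated human colon tumour. The 3 shTRIM21 libraries came from cells that stably carried an shRNA against TRIM21 from a lentivirus, labelled TRIM21 knockdown, and the 3 shControl libraries from cells that carried a scrambled shRNA from the same kind of vector, labelled WT. Both groups went through infection, then puromycin at 5 µg/ml from 36 h after infection for 2 to 3 weeks, and both are labelled day 21, so the control cells had also met a lentivirus and the drug. The sources used here do not say whether the lines were pools or clones. The comparison asks how RNA levels differ between shTRIM21 and shControl cells.

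Cells detect misplaced nucleic acid through a small set of receptors. cGAS, the product of CGAS, binds DNA in the cytosol and makes the messenger cyclic GMP-AMP, which binds STING on the endoplasmic reticulum, while the helicases RIG-I and MDA5 bind RNA and signal through MAVS on mitochondria. Both routes meet at the kinases TBK1 and IKKε, which phosphorylate IRF3 so that it enters the nucleus and switches on interferon genes. TRIM21 has been described as attaching ubiquitin to several of these proteins, among them IRF3, IRF5, DDX41 and MAVS; RNA counts measure transcript levels only, not those proteins.

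The libraries held 22656160 to 25842818 counts in shTRIM21 and 24646400 to 27123657 in shControl, of which ribosomal RNA genes took 9.55% to 15.2% in shTRIM21 and 6.69% to 14.7% in shControl. Replicate 3 of each group had the lowest ribosomal share, and it also stood farthest from the other libraries of its group. Epithelial and colon markers had a summed level of 481 to 517 CPM (gene counts brought to a common library size with TMM scaling) in shTRIM21 and 489 to 495 CPM in shControl, led by DSG2 with a mean of 282 CPM in shTRIM21 and 254 CPM in shControl, then KRT18, ESRP2, KRT8 and VIL1. Of these 15 markers 10 passed the filter on low counts, among them CDH1 at a mean of 4.11 CPM and CDH17 at 0.790 CPM over the 6 libraries, while CLDN4, KRT20, ESRP1 and CLDN3 were at 0.521 CPM or less and CDX1 was listed at 0 everywhere. The 16 leukocyte markers summed to at most 0.539 CPM in any shTRIM21 library and 0.490 CPM in any shControl library, and 9 of them, including CD3D, LYZ and the plasmacytoid dendritic cell markers LILRA4 and CLEC4C, were at 0 in all libraries. Fibroblast markers (9 genes, 5 at 0) summed to 0.0392 to 0.270 CPM in shTRIM21 and 0.0409 to 0.356 CPM in shControl. Endothelial markers (7 genes, 1 at 0) summed to 0.157 to 0.314 CPM in shTRIM21 and 0.356 to 0.572 CPM in shControl. Since several genes that cell lines generally transcribe, such as CANX and RPL7A, were at 0 in every library too, being listed at 0 is not taken to mean that a gene is silent.

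TRIM21 (chromosome 11, 4384897 to 4393696, minus strand, GRCh38) is the gene the shRNA targets. Its RNA stood at 8.83, 8.18 and 6.68 CPM in shTRIM21 replicates 1 to 3, against 11.8, 11.7 and 15.8 CPM in shControl replicates 1 to 3. The groups did not overlap, and the shTRIM21 level was 0.603 of the control level (log2 fold change -0.73, SE 0.17, adjusted p = 0.0124; this and every adjusted p here come from the edgeR quasi-likelihood test, Benjamini-Hochberg adjusted over all tested genes, unless another tool is named). The call was lost when shTRIM21 replicate 3 was left out (-0.62, adjusted p = 0.0734) and when replicate 3 of both groups was (-0.45, 0.114). TRIM21 is itself known as an interferon-induced gene. Its RefSeq promoter window, 250 bases before to 50 after the start, holds a match to the interferon-stimulated response element. This was searched on either strand as 3 copies of GAAA with any 2 bases between copies, and is in 0.187% of all symbols with a window. The shorter IRF element, 2 such copies, is part of it and is in 4.38%. The stretch is shown in the direction of transcription with the element in capitals, from the minus strand of chr11:4393655-4393700 (GRCh38.p14).
TRIM21: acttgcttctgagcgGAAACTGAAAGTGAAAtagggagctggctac

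Of the 10 regulators 9 passed the filter on low counts and were tested, and 1 of these, TBK1, fell in shTRIM21 cells, 0 rose and 8 did not pass. Over all 14002 tested genes 4.66% fell and 4.43% rose, 9.08% in all, and among the regulators it was 11.1%, near that background. At an unadjusted p under 0.05, 1 regulator was higher (IRF2) and 1 lower (TBK1), among the 9 tested. Over all 14002 tested genes, 3188 had an unadjusted p under 0.05. DESeq2 called TBK1 alone and limma-voom 0 regulators. Their median log2 fold change was 0.01, the same as the 0.01 over all tested genes. The groups did not overlap for 2 of the 9, TBK1 and IRF2, where 28.1% of all tested genes had groups that did not overlap. In bulk RNA, fewer cells with a transcript and less of it per cell cannot be told apart.

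**Figure D1:**
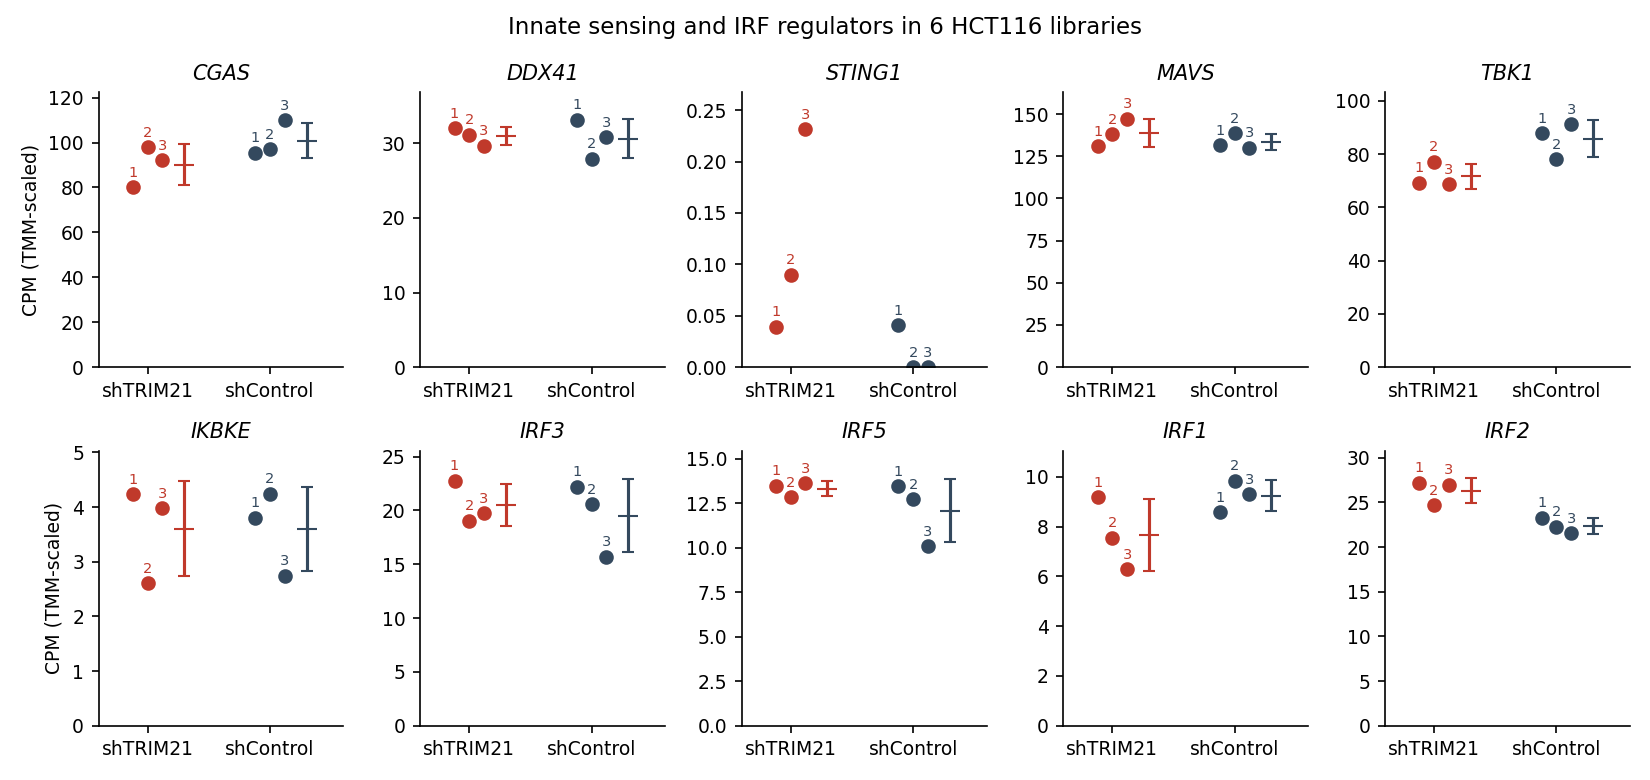
Level of each regulator in each library, in TMM-scaled CPM on linear axes that start at 0. Points are libraries with their replicate number, and the bars beside them are mean ± SD of 3 libraries (not drawn for STING1, whose libraries held 0 to 6 counts). TBK1 lay lower and IRF2 higher in all shTRIM21 libraries than in any shControl library; the points of the other genes overlapped between groups.

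CGAS (chromosome 6, 73413515 to 73452276, minus strand, ENSG00000164430; positions here are GRCh38), the DNA sensor, was the most abundant of the regulators per length of transcript. Its level was 80.2, 97.9 and 92.2 CPM in shTRIM21 replicates 1 to 3, against 95.5, 97.1 and 109.9 CPM in shControl replicates 1 to 3. The lowest value was shTRIM21 replicate 1 and the highest shControl replicate 3, and the groups overlapped, since shTRIM21 replicate 2 lay above 2 of the control libraries. The log2 fold change was -0.16 (SE 0.08, adjusted p = 0.246), with a 95% interval of 0.793-fold to 1.01-fold.

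DDX41 (chromosome 5, 177511577 to 177517469, minus strand, ENSG00000183258) is a DEAD-box helicase that also binds cytosolic DNA and can signal through STING. It had 32.1, 31.1 and 29.7 CPM in shTRIM21 replicates 1 to 3. In shControl replicates 1 to 3 it had 33.2, 27.9 and 30.8 CPM. The shTRIM21 values lay inside the control range, with a log2 fold change of 0.01 (SE 0.10, adjusted p = 0.953) and a 95% interval of 0.872-fold to 1.17-fold.

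STING1, the adaptor that both DNA sensors signal through, was close to undetected in these cells. It held 1, 2 and 6 counts in shTRIM21 replicates 1 to 3, against 1, 0 and 0 counts in shControl replicates 1 to 3, a total of 9 in shTRIM21 and 1 in shControl. The only library above 2 counts was shTRIM21 replicate 3. STING1 did not pass the filter, and no fold change is given. At most 0.232 CPM was seen in any library, while CGAS upstream of it stood at 80.2 CPM or more in every library. The gene is on chromosome 5 at 139475534 to 139482935 (GRCh38, minus strand, ENSG00000184584, named TMEM173 in GENCODE release 29), and how far the counting sets its low value was not tested.

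MAVS (chromosome 20, 3846799 to 3876123, plus strand, ENSG00000088888), the adaptor of the RNA sensors, was the highest of the regulators in CPM. It had 131, 138 and 147 CPM in shTRIM21 replicates 1 to 3, against 132, 139 and 130.0 CPM in shControl replicates 1 to 3. The groups overlapped, and the fold change had the narrowest interval of any regulator, 0.943-fold to 1.15-fold (log2 fold change 0.06, SE 0.07, adjusted p = 0.671).

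TBK1 (chromosome 12, 64451880 to 64502108, plus strand, ENSG00000183735), the kinase at which the DNA and RNA routes meet, fell in shTRIM21 cells by a small amount. Its level was 69.2, 77.1 and 68.8 CPM in shTRIM21 replicates 1 to 3, against 87.9, 78.1 and 91.4 CPM in shControl replicates 1 to 3. All shTRIM21 libraries were lower than all shControl libraries, but the gap between shTRIM21 replicate 2 and shControl replicate 2 was less than 1 CPM. The level was 0.835 of control, with a 95% interval of 0.744 to 0.938 (log2 fold change -0.26, SE 0.08, adjusted p = 0.0478). The direction held under all 17 processing alternatives and the call under 8 of them, with adjusted p from 0.0177 to 0.204. It ended with the removal of shTRIM21 replicate 1 (-0.23, adjusted p = 0.147), 2 (-0.31, 0.0618) or 3 (-0.23, 0.186), of shControl replicate 1 (-0.24, 0.152) or 3 (-0.21, 0.0892) or of replicate 3 of both groups (-0.17, 0.204), with upper-quartile scaling (-0.24, 0.0534), with total counts only (-0.27, 0.0846) and in limma-voom (-0.26, 0.0547). An antisense gene, ENSG00000277895, shares 14.7% of the exon bases of TBK1 and has no values here. Since the strand setting of the counting is unknown, reads of such shared stretches cannot be told apart.

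Ratios of counts within a library, chosen after the values were seen and given without a test, place TBK1 beside its partners. Against the adaptor MAVS there were 0.529, 0.559 and 0.467 counts of TBK1 per count in shTRIM21 replicates 1 to 3, against 0.668, 0.562 and 0.703 in shControl replicates 1 to 3. The shTRIM21 values were all lower, by little between the replicates numbered 2. Against CGAS there were 0.863, 0.788 and 0.746 counts per count in shTRIM21 replicates 1 to 3, against 0.920, 0.804 and 0.831 in shControl replicates 1 to 3, and these groups overlapped.

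**Figure D2:**
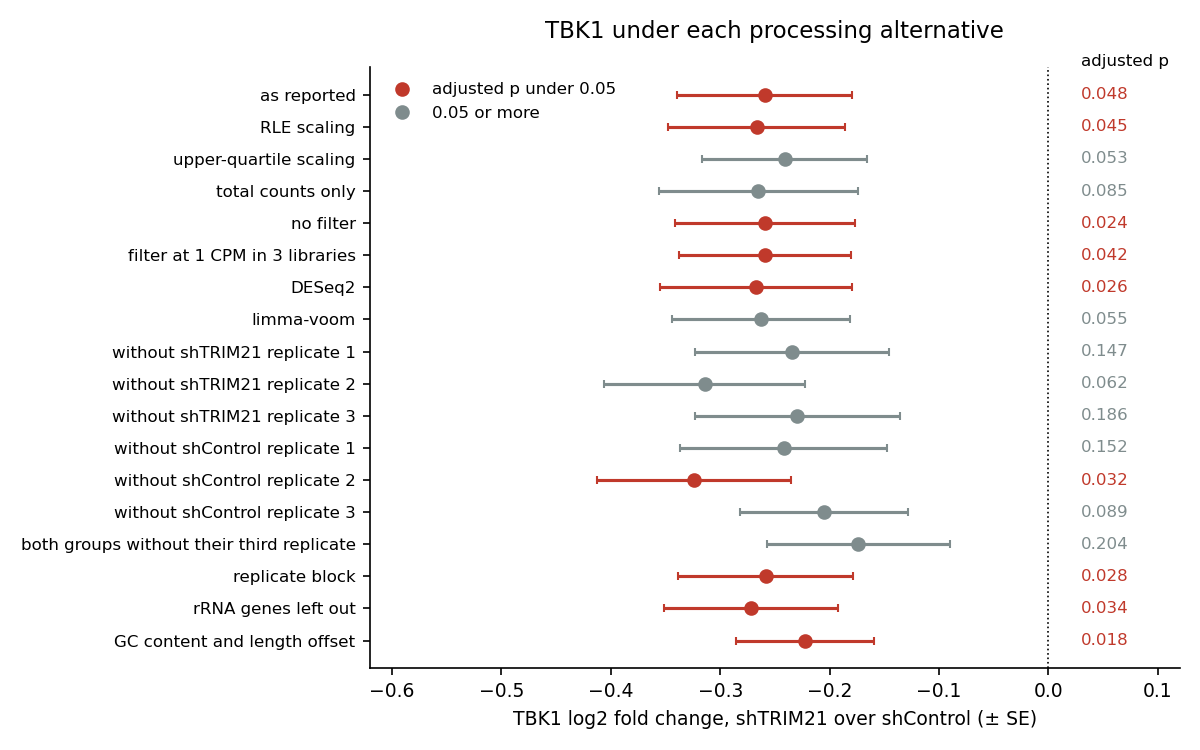
TBK1 under each processing alternative: log2 fold change of shTRIM21 over shControl (point) with its standard error (bar), and the adjusted p beside it. All 18 estimates are below 0, from -0.32 to -0.17, while the adjusted p lies on both sides of the threshold of 0.05.

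IKBKE (chromosome 1, 206470476 to 206496889, plus strand, ENSG00000263528) encodes IKKε, the relative of TBK1 that is mostly made in immune cells. It was a low transcript here, with 4.24, 2.61 and 3.98 CPM in shTRIM21 replicates 1 to 3, against 3.80, 4.25 and 2.74 CPM in shControl replicates 1 to 3. The groups overlapped throughout, at a log2 fold change of 0.01 (SE 0.28, adjusted p = 0.988). At 58 to 108 counts a library the 95% interval, 0.673-fold to 1.51-fold, spans differences larger than that of TBK1.

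IRF3 (chromosome 19, 49659569 to 49665875, minus strand, ENSG00000126456) is the factor that TBK1 phosphorylates. It had 22.8, 19.0 and 19.7 CPM in shTRIM21 replicates 1 to 3, against 22.2, 20.6 and 15.7 CPM in shControl replicates 1 to 3. The lowest library was shControl replicate 3, and the groups overlapped (log2 fold change 0.08, SE 0.14, adjusted p = 0.797, 95% interval 0.863-fold to 1.29-fold). BCL2L12 overlaps 19.3% of the exon bases of IRF3 on the opposite strand of chromosome 19, and averaged 241.5 counts per library, so reads of that stretch cannot be assigned with certainty.

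IRF5 (chromosome 7, 128937612 to 128950035, plus strand, ENSG00000128604) acts downstream of Toll-like receptors and drives inflammatory cytokines in myeloid cells. It had 13.5, 12.8 and 13.6 CPM in shTRIM21 replicates 1 to 3, against 13.5, 12.7 and 10.1 CPM in shControl replicates 1 to 3. Again shControl replicate 3 was the lowest library and the groups overlapped (log2 fold change 0.14, SE 0.15, adjusted p = 0.623, 95% interval 0.888-fold to 1.37-fold).

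IRF1 and IRF2 bind the same DNA element with opposite effects: IRF1 activates genes of the interferon response and antigen presentation, and IRF2 competes with it and mostly represses. IRF1 lies on chromosome 5 at 132481609 to 132490798 (minus strand, ENSG00000125347) and IRF2 on chromosome 4 at 184387713 to 184474580 (minus strand, ENSG00000168310). IRF1 had 9.18, 7.55 and 6.30 CPM in shTRIM21 replicates 1 to 3, against 8.59, 9.85 and 9.29 CPM in shControl replicates 1 to 3. The libraries of shTRIM21 replicates 2 and 3 lay below all controls and that of replicate 1 among them, and the difference did not pass (log2 fold change -0.27, SE 0.18, adjusted p = 0.41). Its 95% interval ran from 0.639-fold to 1.08-fold.

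IRF2 had 27.2, 24.7 and 27.0 CPM in shTRIM21 replicates 1 to 3, against 23.3, 22.3 and 21.6 CPM in shControl replicates 1 to 3. All shTRIM21 libraries lay above all shControl libraries, yet the difference did not pass over all genes (log2 fold change 0.24, SE 0.11, adjusted p = 0.196, 95% interval 1.01-fold to 1.37-fold). The direction of both genes held under all 17 alternatives.

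As a ratio within each library, which no scaling can move, IRF1 had 0.337, 0.305 and 0.233 counts per count of IRF2 in shTRIM21 replicates 1 to 3, against 0.369, 0.442 and 0.431 in shControl replicates 1 to 3. The ratio was lower in every shTRIM21 library. The pair was looked at after its values were seen, so the ratio is given without a test. The antisense gene IRF1-AS1 covers 22% of the exon bases of IRF1 and averaged 1 count per library.

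The IRF1 promoter window carries 1 match to the gamma-activated site, an element of interferon-γ signalling. The motif (TTCNNNGAA, which reads the same on both strands) is in 9.38% of all symbols with a window. The stretch, with the match in capitals, comes from the minus strand of chr5:132490874-132490912 (GRCh38.p14).
IRF1: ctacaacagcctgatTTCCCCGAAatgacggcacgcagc

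**Figure D3:**
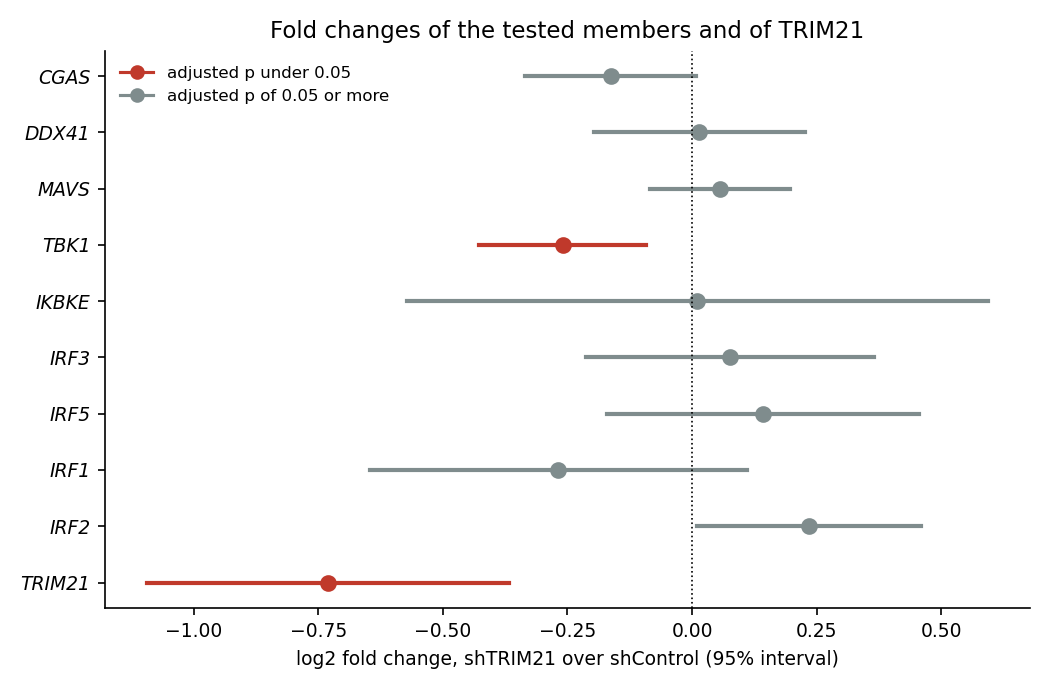
Log2 fold change of shTRIM21 over shControl (points) with its 95% interval (lines) for the 9 tested regulators and for TRIM21. Only TBK1, at -0.26, and TRIM21, at -0.73, have an adjusted p under 0.05; the intervals are narrowest for MAVS and widest, among the regulators, for IKBKE.

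Per kilobase of annotated exon the regulators spanned a wide range of levels, and their order was the same in both groups. CGAS had 21.7 ± 2.17 CPM per kb in shTRIM21 and 24.3 ± 1.89 CPM per kb in shControl, followed by TBK1 with 15.1 ± 0.989 CPM per kb in shTRIM21 and 18.01 ± 1.45 CPM per kb in shControl (SD, n = 3 each). MAVS came next, with 11.8 ± 0.702 CPM per kb in shTRIM21 and 11.3 ± 0.400 CPM per kb in shControl. Over all 6 libraries the ranges of these genes did not overlap.

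IRF2, at 6.92 to 8.74 CPM per kb over the 6 libraries, and DDX41, at 6.16 to 7.31 CPM per kb, did overlap and cannot be ordered. IRF3 lay below both at 4.14 to 5.998 CPM per kb and IRF5 below that at 2.30 to 3.12 CPM per kb. IRF1, at 0.807 to 1.26 CPM per kb, and IKBKE, at 0.687 to 1.12 CPM per kb, overlapped, and STING1 stayed at or under 0.0602 CPM per kb. With the length of the longest coding transcript in place of all exon bases, DDX41 had a higher median (11.9 CPM per kb) than MAVS (11.5) and IRF2 (10.4), so the order of these 3 depends on the length used. The coefficient of variation between shTRIM21 libraries ran from 3.16% for IRF5 to 24.3% for IKBKE among the tested regulators, and between shControl libraries from 3.53% for MAVS to 21.5% for IKBKE.

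**Figure D4:**
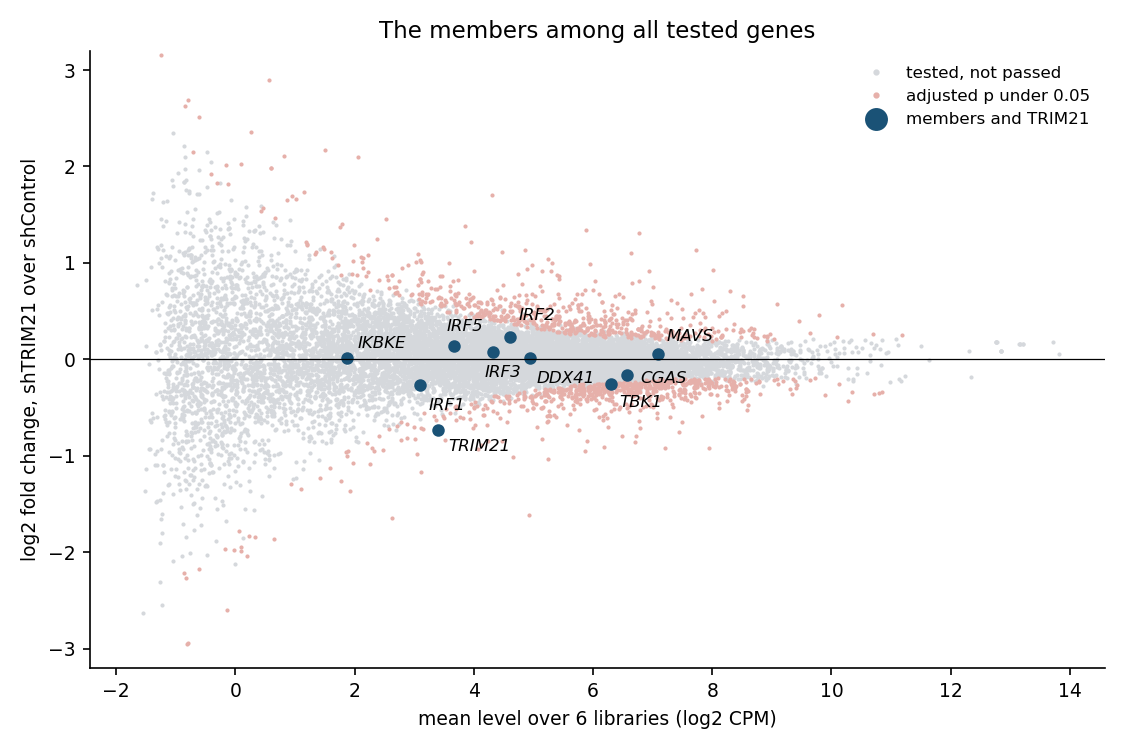
Mean level over 6 libraries (log2 CPM) against log2 fold change of shTRIM21 over shControl for the 14002 tested genes, with the 9 tested regulators and TRIM21 marked. The regulators other than TBK1 lie inside the grey cloud of genes that did not pass; 4 genes beyond 3.2 on the vertical axis are not drawn.

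Precision differed with level. Among tested genes of 25 to 100 CPM, the range that holds CGAS, DDX41 and TBK1, 11.99% were called and the median SE was 0.0908, while of those under 5 CPM, the range of IKBKE, 2.45% were called and the median SE was 0.438.

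The 3′ UTRs of 4 of the 9 tested regulators hold the sequence AGTGGAA, which an earlier look at these same fold changes had picked out because genes with it were lower in shTRIM21 cells. Among 12000 tested genes with an annotated 3′ UTR the share with it was 41.2% for the 611 that fell, 13.2% for the 560 that rose and 14.9% for the other 10829. The 4 sites are shown with AGTGGAA in capitals, all on the plus strand of GRCh38, from the longest annotated coding 3′ UTR: TBK1 at chr12:64501712-64501740, MAVS at chr20:3874487-3874515, IKBKE at chr1:206496849-206496877 and IRF5 at chr7:128949929-128949957.
TBK1: aaatatttttaAGTGGAAccaaaataggc
MAVS: tgaaatgttatAGTGGAAaaaaagggaag
IKBKE: caccttcaagaAGTGGAAtaaatgtggcc
IRF5: ttcagccattgAGTGGAAgctgccccagg

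TBK1, which fell by 0.26 on the log2 scale, is 1 of these 4, and MAVS, IKBKE and IRF5 had log2 fold changes of 0.06, 0.01 and 0.14. The site of MAVS lies at base 8351 of a 3′ UTR of 9976 bases and that of TBK1 at base 342 of 727. CGAS, DDX41, IRF1, IRF2 and IRF3 have no match. The part of this sequence in the TBK1 result was not tested. The sequence GTGTCAC, which the same look had tied to higher levels, is in none of the regulators' 3′ UTRs.

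Around the regulators, 7 lists of 162 genes of the same pathway gave 135 tested genes, of which 4 rose and 6 fell, 7.41% against 9.08% of all tested genes. Their median log2 fold change was 0.03. Over all genes, 3188 of 14002 tested had an unadjusted p under 0.05. DESeq2 called 694 genes higher and 852 lower over all genes, and limma-voom 569 higher and 629 lower. The lists were drawn up by function, with earlier results of these data known. The genes named first are those that passed, or the most abundant gene of a list in which none did. Other genes, such as RIG-I, MDA5, IRF7, ISG15, IFIT1 and those listed at 0, were added after their values were seen.

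Among 18 tested nucleic acid sensors 2 fell and 0 rose (11.1%, against 9.08% of all tested genes), with a median of -0.08. At an unadjusted p under 0.05, 1 sensor was higher and 4 lower. DESeq2 called 1 higher and 3 lower, and limma-voom 0 higher and 2 lower. EIF2AK2, the kinase PKR that stops translation on binding double-stranded RNA, had 326, 341 and 355 CPM in shTRIM21 replicates 1 to 3, against 425, 420.2 and 416 CPM in shControl replicates 1 to 3, and the groups did not overlap (log2 fold change -0.30, SE 0.06, adjusted p = 0.0033). G3BP1, a stress granule protein that helps cGAS bind DNA, averaged 504 ± 37.5 CPM in shTRIM21 and 582 ± 14.1 CPM in shControl (SD, n = 3 each; log2 fold change -0.21, SE 0.06, adjusted p = 0.049). RIG-I, listed under its older symbol DDX58, averaged 12.9 ± 1.55 CPM in shTRIM21 and 12.6 ± 0.413 CPM in shControl, and MDA5 (IFIH1) averaged 7.26 ± 0.201 CPM in shTRIM21 and 6.996 ± 0.334 CPM in shControl; neither passed (adjusted p = 0.918 for RIG-I and 0.896 for MDA5). TLR7, TLR8, ZBP1 and OASL were listed at 0 in all libraries.

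Among 28 adaptors and kinase scaffolds 1 rose and 1 fell (7.14%, against 9.08% of all tested genes), with a median of 0.04. DESeq2 also called 1 higher and 1 lower, and limma-voom 0 higher and 1 lower. TRAF3, the ubiquitin ligase that links MAVS to TBK1, had 60.4, 48.9 and 50.6 CPM in shTRIM21 replicates 1 to 3, against 72.1, 70.9 and 70.0 CPM in shControl replicates 1 to 3, and every shTRIM21 library was below every control (log2 fold change -0.41, SE 0.09, adjusted p = 0.00505). TAX1BP1, an autophagy receptor that limits MAVS signalling, averaged 106 ± 5.29 CPM in shTRIM21 and 89.9 ± 6.03 CPM in shControl (SD, n = 3 each; log2 fold change 0.24, SE 0.07, adjusted p = 0.0422).

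Among 37 ubiquitin enzymes of sensing and their partners 1 rose and 3 fell (10.8%, against 9.08% of all tested genes), with a median of 0.01. DESeq2 called 1 higher and 4 lower, and limma-voom 1 higher and 3 lower, while 4 were higher and 7 lower at an unadjusted p under 0.05. TRIM26, a ligase reported to act on IRF3, had 57.2, 49.9 and 51.0 CPM in shTRIM21 replicates 1 to 3, against 34.8, 32.6 and 34.1 CPM in shControl replicates 1 to 3 (log2 fold change 0.64, SE 0.09, adjusted p = 0.000129). This was the smallest adjusted p among the 135 pathway genes. USP13, a deubiquitinase that acts on STING, averaged 45.1 ± 1.99 CPM in shTRIM21 and 59.5 ± 1.32 CPM in shControl (SD, n = 3 each; log2 fold change -0.40, SE 0.08, adjusted p = 0.00403). PCBP1, an RNA-binding protein described in MAVS turnover, averaged 204 ± 11.1 CPM in shTRIM21 and 246 ± 2.92 CPM in shControl (log2 fold change -0.27, adjusted p = 0.0102), and TRIM4, a ligase of RIG-I, averaged 19.1 ± 2.095 CPM in shTRIM21 and 26.1 ± 0.113 CPM in shControl (-0.45, adjusted p = 0.0189). PCBP1-AS1 overlaps 52.2% of the exon bases of PCBP1 and averaged 27.5 counts per library.

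EIF2AK2, TRAF3, TRIM26 and USP13 kept their call under all 17 alternatives. Leaving out 1 library ended the calls of the others. G3BP1 (adjusted p up to 0.204 over all alternatives) and TAX1BP1 (up to 0.206) lost the call without any one of shTRIM21 replicates 1, 2 and 3 and shControl replicates 1 and 2. The call of G3BP1 was also lost with total counts only (adjusted p = 0.144) and with the GC and length offset (0.0616), and that of TAX1BP1 with RLE scaling (0.0507), with total counts only (0.111) and in limma-voom (0.0508). TRIM4 (up to 0.0859) lost it without shTRIM21 replicate 1 or 3 or shControl replicate 1 or 2, and PCBP1 (up to 0.081) without shTRIM21 replicate 2 or shControl replicate 1. Of the 6 pathway genes that fell, EIF2AK2, PCBP1 and USP13 hold AGTGGAA in the 3′ UTR, as does TAX1BP1 among the 4 that rose and 22 of the 125 that did not pass. GTGTCAC is in TRAF3 and USP13 among those that fell, in TRIM26 among those that rose and in 12 of the 125 that did not pass. Since AGTGGAA was picked from these same fold changes, a higher share among genes that fell follows from that choice and is no separate result.

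In 3 of the lists no gene passed in edgeR's test. Among 14 genes that remove nucleic acids or limit sensing the median was 0.05, with 1 higher and 2 lower at an unadjusted p under 0.05 and 0 called by DESeq2 or limma-voom. The most abundant, the RNA editor ADAR, averaged 395 ± 7.55 CPM in shTRIM21 and 427 ± 9.65 CPM in shControl (SD, n = 3 each; log2 fold change -0.11, adjusted p = 0.269). Among 7 tested IRF relatives and cofactors the median was 0.05, with IRF7 alone at an unadjusted p under 0.05 and 0 called by DESeq2 or limma-voom. The corepressor IRF2BP2 averaged 58.5 ± 7.02 CPM in shTRIM21 and 64.4 ± 3.77 CPM in shControl (-0.14, adjusted p = 0.383). IRF7, the interferon-induced IRF and singled out here after its values were seen, held 31, 30 and 12 counts in shTRIM21 replicates 1 to 3, against 9, 6 and 7 counts in shControl replicates 1 to 3. All shTRIM21 libraries were above all controls, at a log2 fold change of 1.79 (SE 0.61) and an adjusted p of 0.0749, which did not pass; over the alternatives that tested it the adjusted p ran from 0.0395 to 0.266, and without replicate 3 of both groups it passed.

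Of 15 tested genes for interferons, their receptors and JAK-STAT signalling 0 passed, with a median of -0.03; 2 were lower at an unadjusted p under 0.05, DESeq2 called 1 and limma-voom 0. The interferon genes IFNB1, IFNA1, IFNL1, IFNL2 and IFNL3 were listed at 0 in all 6 libraries. The phosphatase PTPN11, the most abundant of the list, averaged 425 ± 19.2 CPM in shTRIM21 and 477 ± 8.68 CPM in shControl (SD, n = 3 each; log2 fold change -0.17, SE 0.06, adjusted p = 0.0875), and it passed under 3 of the 17 alternatives.

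Among 16 tested targets of IRF3 or IRF1, 2 rose and 0 fell (12.5%, against 9.08% of all tested genes). Of these targets 12 were above 0, with a median of 0.13. Above 0 were also 76 of the 135 tested pathway genes and 7253 of all 14002. At an unadjusted p under 0.05, 4 targets were higher and 1 lower, against 3188 of all tested genes. The lower one, named after its values were seen, was CD274, the most abundant tested target (log2 fold change -0.14, adjusted p = 0.161). DESeq2 and limma-voom each called 2 targets, both higher. B2M, the invariant chain of MHC class I, had 415, 442 and 462 CPM in shTRIM21 replicates 1 to 3, against 353, 345 and 411 CPM in shControl replicates 1 to 3 (log2 fold change 0.25, SE 0.07, adjusted p = 0.033). ISG20, an interferon-induced exonuclease, was low, with 5.45, 2.88 and 3.90 CPM in shTRIM21 replicates 1 to 3, against 2.33, 1.76 and 1.57 CPM in shControl replicates 1 to 3 (1.12, SE 0.31, adjusted p = 0.0316). The groups of neither gene overlapped; for B2M the lowest shTRIM21 library, replicate 1, was close to the highest control, replicate 3. The call of B2M (adjusted p up to 0.177) was lost without shTRIM21 replicate 2 or 3 or shControl replicate 1 or 2, and that of ISG20 (up to 0.189) without shTRIM21 replicate 1 or 3 or shControl replicate 2 or 3. The call of B2M was also lost with total counts only (adjusted p = 0.116), and that of ISG20 without replicate 3 of both groups (0.065).

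The classical targets of IRF3 were low or listed at 0. ISG15, a ubiquitin-like modifier, averaged 6.56 ± 0.535 CPM in shTRIM21 and 4.61 ± 0.526 CPM in shControl (SD, n = 3 each), groups that did not overlap but did not pass (log2 fold change 0.51, SE 0.21, adjusted p = 0.139). IFIT1 averaged 1.62 ± 0.652 CPM in shTRIM21 and 1.27 ± 0.676 CPM in shControl (adjusted p = 0.72). The chemokines CXCL10 and CXCL11 and the death ligand TNFSF10 were listed at 0 in all libraries.

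**Figure D5:**
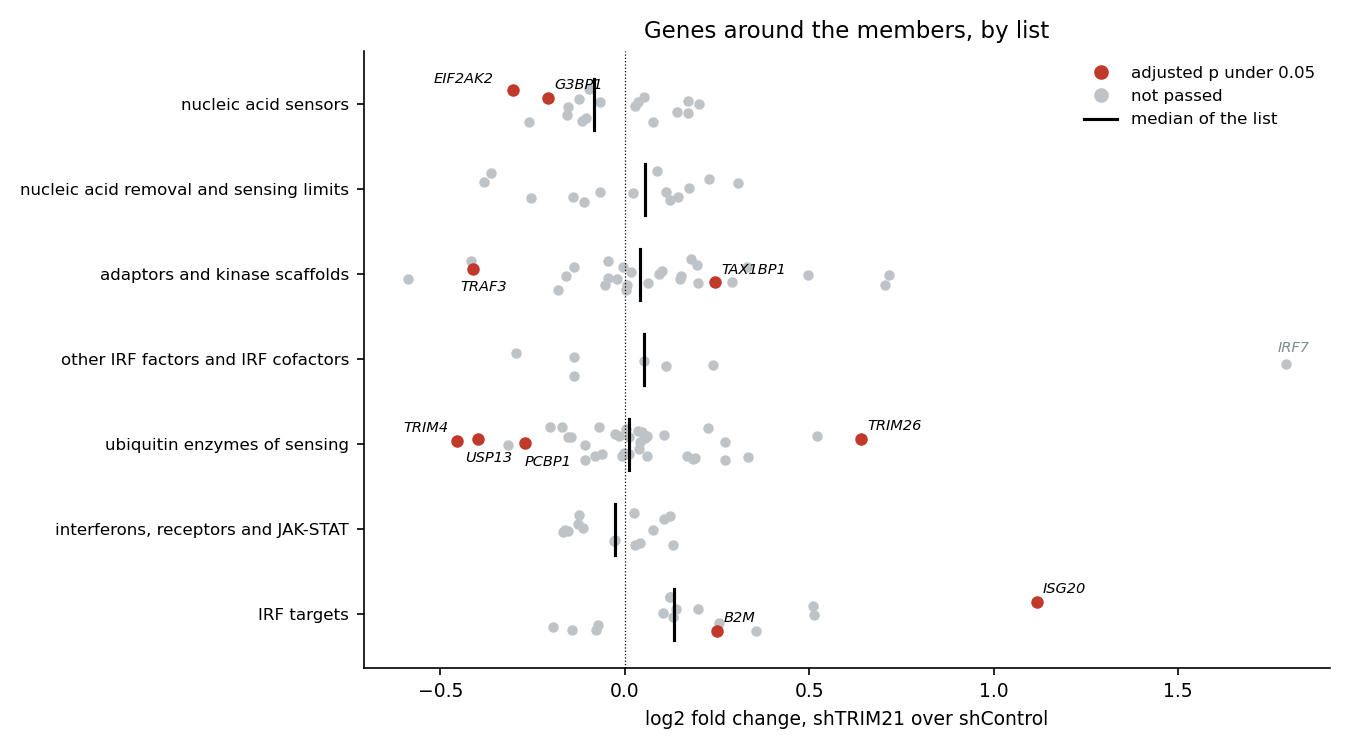
Log2 fold change of shTRIM21 over shControl for the 135 tested genes of the 7 pathway lists, 1 point per gene (vertical scatter within a list has no meaning), with the list medians as black lines. The 10 genes with an adjusted p under 0.05 are red and named; the farthest grey point, IRF7 at 1.79, did not pass.

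Pathway genes that did not pass also hold the IRF element in their promoter window. Examples, named after their values were seen, are MDA5 (IFIH1), DDX60, OAS3, TLR3, MYD88, RIPK1, ISG15, IFIT1, PSMB8, CD274, TAP1 and BST2. The share with it among the pathway genes that did not pass was not counted. Of the 10 changed pathway genes, EIF2AK2, TRIM26, B2M and ISG20 hold it, out of 9 with a window. B2M and ISG20 come from the IRF target list, where 12 of 17 genes with a window hold it. The element is therefore not read as a mark of the changed genes. The stretches are given in the direction of transcription with the element, or the longer interferon-stimulated response element in TRIM26 and B2M, in capitals; EIF2AK2 (chr2:37156962-37157001) and TRIM26 (chr6:30213570-30213615) are on the minus strand, B2M (chr15:44711358-44711403) and ISG20 (chr15:88638932-88638971) on the plus strand of GRCh38.p14.
EIF2AK2: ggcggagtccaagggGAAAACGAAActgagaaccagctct
TRIM26: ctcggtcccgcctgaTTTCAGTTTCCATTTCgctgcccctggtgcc
B2M: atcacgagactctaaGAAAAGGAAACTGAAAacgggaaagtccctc
ISG20: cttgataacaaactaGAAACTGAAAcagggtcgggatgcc

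These genes did not move one way: EIF2AK2 fell and the other 3 rose. Among all tested genes with a window, 429 hold the element, of which 21 rose and 27 fell (11.2% called, median log2 fold change 0.01), and of 10084 without it 466 rose and 478 fell (9.36%, median 0.01). The longer element is in 24 tested genes, TRIM21 among them. Of these, 3 rose and 3 fell (25% called), against 9.4% called of 10489 without it. TRIM21, the target of the shRNA, is 1 of the 3 that fell, and TRIM26 and B2M, named above, are among the 3 that rose. These calls therefore overlap with those given above and are no separate result. In the IRF target list 12 of 17 genes with a window hold the element. Of the regulators, 6 (IKBKE, IRF1, DDX41, IRF5, TBK1 and MAVS) have a window and 0 of these hold it; a match or its lack describes these letters only.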

How the data were processed

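Per the labels' protocols, total RNA was extracted with Trizol, depleted of ribosomal RNA and made into libraries with a low-input kit. For each library the authors deposited whole-number counts by gene symbol, with no normalization. The hg38 build, TopHat2 2.1.1, limma 3.52.2 and edgeR 3.38.1 are named in, and taken per, the submitters' processing notes. The tool, annotation and strand setting of the counting were not found in these sources. The labels call the libraries biological replicates without naming separate cultures, so p-values measure only the spread between these samples, and that spread could be technical. Replicates of a group differed by more than sampling noise (chi-square per degree of freedom 6.52 or more).

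The test was edgeR 4.0.16 under R 4.3.3: default low-count filter, TMM scaling, quasi-likelihood test of shTRIM21 against shControl over all 14002 genes left, Benjamini-Hochberg adjustment, threshold 0.05. SE is the log2 fold change over the root of F, and 95% intervals use the test's degrees of freedom. CPM are relative to TMM-scaled library sizes. Alternatives used other scalings and filters, DESeq2 1.42.0, limma-voom (limma 3.58.1), libraries left out, a replicate block, no rRNA genes, and, added after the data were seen, a GC and length offset. Positions, exons and 3′ UTRs come from GENCODE release 29, which matched 26213 symbols, and promoters from RefSeq (GRCh38.p14). The regulators and lists were chosen with earlier results of these data known. Genes named are the 10 regulators, TRIM21, each list gene past the threshold (or the most abundant where none passed), and others that the text says were added after their values were seen.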

Additional observations from a re-analysis of the deposited data

How the results depend on the processing

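Only the offset for GC content and length was chosen after seeing the data. With 1 library left out at a time, the genes changed numbered 602 to 1737 (1272 as reported), the regulators changed 0 to 1 (1 as reported), the pathway genes changed 5 to 12 (10 as reported) and the TRIM21 fold change ran from -0.82 to -0.56. The regulators changed numbered 0 with upper-quartile scaling, with total counts only, in limma-voom and without replicate 3 of both groups. For TRIM21 the call did not hold with shTRIM21 replicate 3 left out (-0.62) or with replicate 3 of both groups left out (-0.45). The GC and length offset gave 1959 genes and 17 pathway genes changed, 9 of the pathway genes among the 10 reported; the cause was not tested. None of the 8 other tested regulators passed under any of the 17 alternatives, and 6 of the 9 kept their direction under all. The exceptions, DDX41, IKBKE and IRF3, lay near 0 as reported (0.01, 0.01 and 0.08) but moved with the setting. With 1 library left out DDX41 ran from -0.047 to 0.075, IKBKE from -0.15 to 0.19 and IRF3 from -0.053 to 0.18. IKBKE was at -0.22 and IRF3 at -0.022 without replicate 3 of both groups, IKBKE at -0.00050 without rRNA genes, and DDX41 at -0.086, IKBKE at -0.065 and IRF3 at -0.0092 with the offset. Between groups, the deviations of libraries with the same number correlated at 0.096, -0.012 and 0.091. Those with different numbers correlated at -0.12 to 0.048. These values do not settle whether the numbers pair the samples, and the main test leaves pairing out. With the replicate block 1699 genes, 13 pathway genes and 1 regulator changed, and TRIM21 stood at -0.72. Low counts limit IKBKE and STING1 most, and how far the counting sets the low value of STING1 was not tested.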
